A study of Mus musculus with 2 samples.

Results

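The glutathione, peroxiredoxin and thioredoxin genes of mouse, called the redox genes here, were followed through single-cell RNA-seq of oviduct epithelium. They were chosen by symbol and not by expression: glutathione peroxidases (Gpx), glutathione transferases (Gst and Mgst), peroxiredoxins (Prdx), thioredoxin and thioredoxin-domain genes (Txn), superoxide dismutases (Sod), and Cat, Gclc, Gclm, Gss, Gsr, Sepp1, Nqo1 and Hmox1. This gave 72 of the 54674 genes listed in all, of which 68 are listed in the adult table, 71 in that of P4 and 67 in both. The 2 libraries came from C57BL/6 oviducts, 1 from adult mice in estrus and 1 labelled P4, read here as postnatal day 4. Cells were released with enzymes, sorted by flow cytometry to discard dead cells and, with antibodies to Epcam and CD45, to enrich the epithelium, and processed with the 10x Chromium 3' V2 kit. No transgene, treatment or pooling of animals is named in the labels.

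Glutathione is the main small thiol of the cell and is made in steps catalysed by glutamate-cysteine ligase (Gclc and its regulatory subunit Gclm) and glutathione synthetase (Gss), and glutathione reductase (Gsr) returns it to its reduced form. Glutathione peroxidases use it to remove peroxides, and glutathione transferases couple it to reactive or foreign compounds. Most peroxiredoxins remove peroxides with electrons from thioredoxin, which thioredoxin reductases recharge, while superoxide dismutases and catalase act on superoxide and hydrogen peroxide. Several of these genes are targets of NRF2 (encoded by Nfe2l2), a transcription factor that binds the antioxidant response element. The oviduct lining holds multiciliated cells, which move fluid and eggs, and secretory cells, which make the fluid in which eggs are fertilised.

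The adult table holds 1401641 UMI (unique molecular identifiers, each a counted transcript molecule) in 406 cells, with a median of 3232 per cell. The P4 table holds 2123202 UMI in 263 cells, with a median of 7585 per cell. Each age is 1 library, so no value has a replicate and no p-value was computed. A level is the UMI of a gene per 10000 UMI pooled over a group of cells, with exact 95% Poisson intervals in brackets, which cover counting error only. The adult table repeats 401 barcodes under a second column prefix. The paired columns differed by less than the sampling noise between cells, with a mean squared difference over sum of at most 0.621 for the same barcode and at least 1.03 for other cells, so each barcode was counted once. No barcode was shared by the adult and P4 libraries. Ptprc, which encodes CD45, had 0 UMI in both libraries. Of 11 adult-listed multiciliated markers only Mcidas was at 0, and all 9 secretory markers, such as Ovgp1, had counts.

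Cells were grouped by the authors' cluster numbers, which were made from the same expression values, so levels by cluster are descriptions, and comparisons that share a cluster are not independent of each other. Adult clusters 1 (183 cells) and 3 (37 cells) are called multiciliated-like, with summed levels of the multiciliated markers of 135.3 and 90.4 per 10000. Cluster 3 is mixed, with the secretory marker Ovgp1 found in 83.8% of its cells. Adult clusters 0 (130 cells) and 4 (31 cells) are called secretory-like, with 90.7 and 350.3 per 10000 of the secretory markers and 2.50 and 4.09 of the multiciliated ones. Adult cluster 5 (25 cells) keeps its number, since 8 of its cells carried over 10 UMI per 10000 of smooth muscle markers. Those 8 cells, called its smooth muscle cells for short, were left out of its levels, which leaves 17 cells and 53491 UMI. Ovgp1 was found in 24 of all 25 cells, so most of the 8 carried it too. What these cells are was not tested. P4 clusters 0 (168 cells) and 1 (95 cells) also keep their numbers, with 6.94 and 1.18 per 10000 of the multiciliated and 13.8 and 26.0 of the secretory markers. Median depth was 4107.5, 3165, 3657 and 1185 UMI in adult clusters 0, 1, 3 and 4.

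The sequences upstream of a RefSeq start of 5 redox genes are shown, chosen as follows. Gstm2 and Gstm1 had the largest folds of the measured redox genes between adult cluster 0 and P4 cluster 1. Sepp1, not measured there, had a larger ratio once paired with its P4 symbol Selenop, a step added after seeing the data. Prdx1 and Mgst1 are abundant genes that carry an antioxidant response element core. Each is 200 bases ending 1 base before the first listed RefSeq start of the gene, on build GRCm38.p6, written 5′ to 3′ in the direction of the gene. The GENCODE M21 annotation starts Sepp1 (at 3268547) and Mgst1 (at 138140316) ahead of these windows, and Gstm2 and Prdx1 inside theirs. The bases upstream of those GENCODE starts of Sepp1 and Mgst1 are not shown. Capitals mark a match to the element core, TGACNNNGC, read on either strand.
Gstm2 (chr3:107986421-107986620, minus strand): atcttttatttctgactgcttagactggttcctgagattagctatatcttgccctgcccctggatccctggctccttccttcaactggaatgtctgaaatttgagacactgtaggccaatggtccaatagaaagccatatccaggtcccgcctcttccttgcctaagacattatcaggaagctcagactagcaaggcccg
Gstm1 (chr3:108017974-108018173, minus strand): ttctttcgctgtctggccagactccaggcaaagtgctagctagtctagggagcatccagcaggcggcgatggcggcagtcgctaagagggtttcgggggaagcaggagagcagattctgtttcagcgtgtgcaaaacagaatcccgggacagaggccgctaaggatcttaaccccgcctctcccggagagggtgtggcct
Sepp1 (chr15:3270567-3270766, plus strand): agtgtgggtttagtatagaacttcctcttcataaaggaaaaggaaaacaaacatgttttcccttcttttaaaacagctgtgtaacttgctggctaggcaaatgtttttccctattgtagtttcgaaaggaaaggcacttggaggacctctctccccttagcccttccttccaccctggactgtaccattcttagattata
Prdx1 (chr4:116685399-116685598, plus strand): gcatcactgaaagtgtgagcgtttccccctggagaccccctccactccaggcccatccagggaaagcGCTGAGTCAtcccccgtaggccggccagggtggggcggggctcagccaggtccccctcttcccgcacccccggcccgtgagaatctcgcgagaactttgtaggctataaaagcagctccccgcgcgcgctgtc
Mgst1 (chr6:138140327-138140526, plus strand): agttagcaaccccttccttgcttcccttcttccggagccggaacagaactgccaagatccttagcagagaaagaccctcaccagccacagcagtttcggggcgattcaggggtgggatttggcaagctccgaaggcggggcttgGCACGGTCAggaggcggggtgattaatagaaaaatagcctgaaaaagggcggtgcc

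RefSeq names Sepp1 as Selenop, which is also the symbol in the P4 table. Within the whole promoter windows of the RefSeq table (250 bases before to 50 after the start), a core was present in 11 of 59 redox genes with a window (18.6%), against 14.0% of 27025 genes with one. The 11 genes are Gclm, Gsta3, Gstm5, Gstm7, Mgst1, Prdx1, Sod1, Txndc11, Txndc2, Txndc5 and Txnrd1. The core in Prdx1 lies at position -133 from the start site, that in Mgst1 at -56 and that in Gclm at -134. No window of a redox gene held the estrogen response element, GGTCA and TGACC with 3 bases between them (0 of 79 windows, against 23 of 32851 in all). A match is a run of letters and not a measured binding site.

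The redox genes took 1.39% of all UMI of the adult library and 0.651% of that at P4. These shares rest on unlike gene sets. The adult sum includes Sepp1 (1264 UMI), whereas the P4 sum leaves out the same gene under the symbol Selenop (111 UMI). Genes not in both tables hold 1.79% of adult and 13.4% of P4 UMI. Of the 68 listed for the adult, 60 had counts and 46 had at least 20, and of the 71 listed for P4, 64 had counts and 48 had at least 20. Gpx5, Gpx6, Gsta1, Gstt4, Txndc2 and Txndc8 were at 0 in both libraries. Gstm3 and Prdx6b were at 0 in the adult library, with 5 and 17 UMI at P4, and the pseudogene Prdx6-ps2, which the P4 table alone lists, was at 0 there. A group with 3 counts or fewer was taken as at the floor, which is 0.0214 per 10000 for all adult cells and 0.0141 for all P4 cells. Prdx1, a cytosolic peroxiredoxin, led at both ages, with 22.8 [22.0, 23.6] in adult cells and 11.2 [10.8, 11.7] in P4 cells. Next in the adult library came the mu class transferases Gstm1 (13.6) and Gstm2 (12.4), the selenium carrier Sepp1 (9.02), the membrane-bound transferase Mgst1 (8.05) and Gpx4 (7.72). At P4 they were Prdx2 (5.37), Txn1 (4.30) and Gstm2 (3.51). Counts from 3' libraries are not scaled to transcript length.

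**Figure D1:**
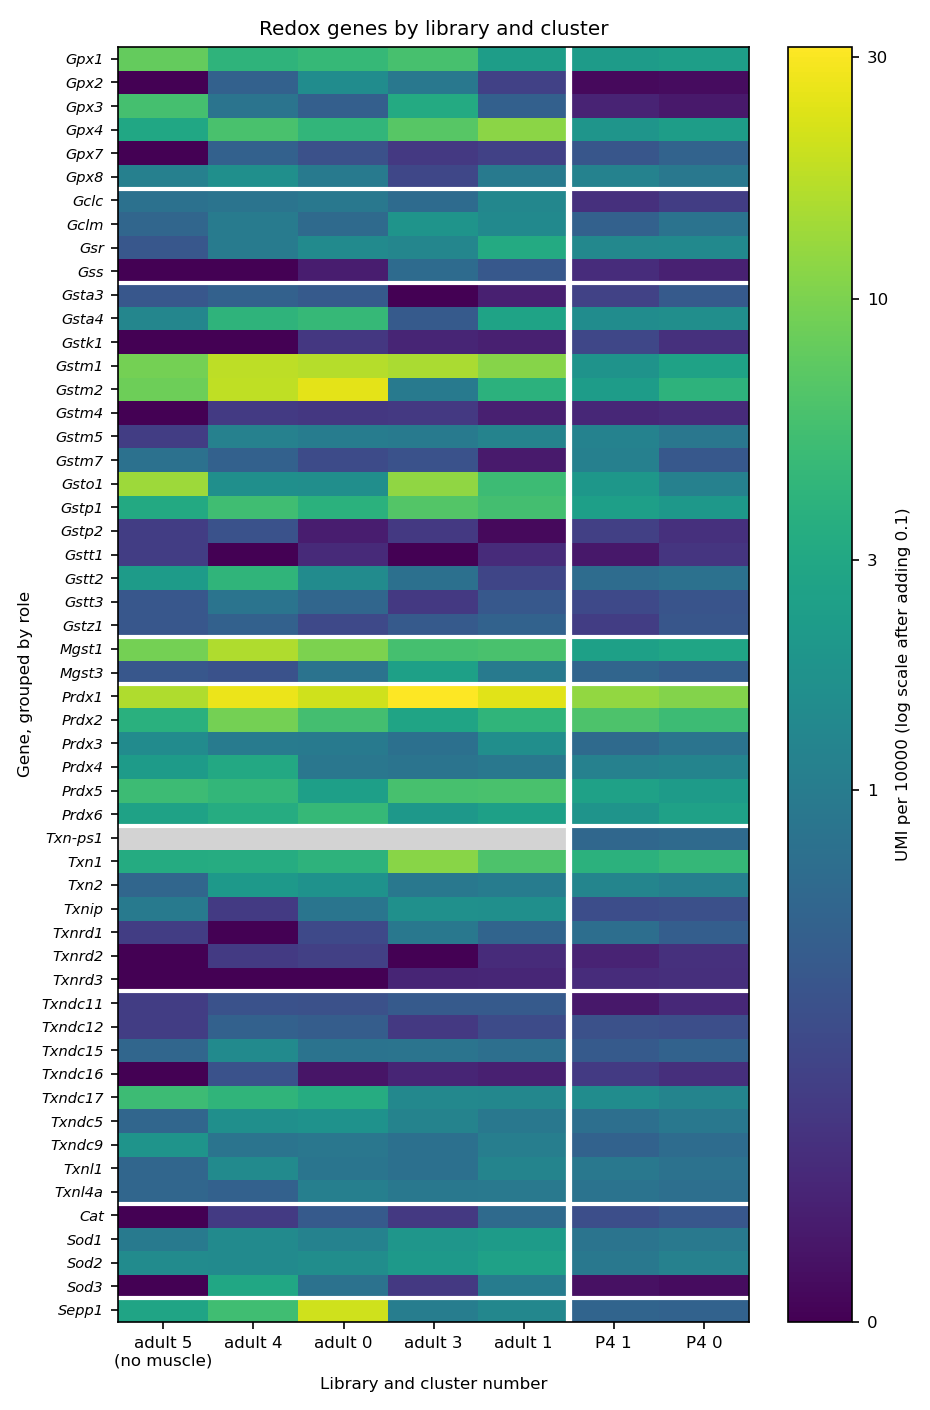
Colour gives the pooled level (UMI per 10000, log scale) of each redox gene with at least 20 counts in a library, by adult and P4 cluster, with genes grouped by role and grey where a table does not list the gene. The Sepp1 row shows Selenop in the P4 clusters. Gstm2 and Sepp1 are brightest in adult cluster 0, at 24.8 and 20.8, and Prdx1 is bright in every column, between 10.7 and 31.3.

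In the adult, secretory-like cluster 0 was set against multiciliated-like cluster 1. Sepp1 and Gstm2 stood far higher in the secretory-like cells, while Gpx4, Gsto1, Prdx5, Gsr and Gclm were higher in the multiciliated-like cells. A gene was called measured where the mean of the 2 group levels was at least 1 per 10000, and different where the fold, taken after adding 0.1 per 10000 to each level, was at least 2. Of the 68 redox genes listed, 27 were measured, of which 7 passed only through their higher group. In cluster 0, 3 of them were at least 2-fold higher and 5 at least 2-fold lower. This split changed with the scaling of the levels, as given below with Gsr and Gclm. Among all 1618 measured genes, 15.3% were higher and 22.1% lower. The median log2 fold of the 27 was -0.24, against -0.15 for all measured genes, so their share of calls and their median lie near those of the genome.

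Sepp1 encodes selenoprotein P, the secreted protein that carries selenium between tissues. Its level was 20.8 [19.6, 22.1] in cluster 0 (1066 UMI) and 1.32 [1.04, 1.64] in cluster 1 (78 UMI), a 14.7-fold difference (ratio interval 12.5 to 20.1). It was detected in 72.3% of the cells of cluster 0 and 15.3% of those of cluster 1. At an equal depth of 1000 UMI per cell, the shares were 75.0% of 112 cells and 9.22% of 141 cells. The secretory product gene Ovgp1 was itself found in 29.5% of cluster 1 cells, at 6.16 per 10000 against 58.7 in cluster 0. Whether the low Sepp1 share of cluster 1 reflects expression in those cells was not tested. Sepp1 is also known from macrophages. The 12 leukocyte and macrophage markers summed to 1.09 per 10000 in cluster 0 and 0.608 in cluster 1, and the part of such cells in the Sepp1 levels was not tested.

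Gstm2, a mu class transferase, had 24.8 [23.5, 26.2] in cluster 0 and 3.97 [3.48, 4.51] in cluster 1, a 6.12-fold difference (5.44 to 7.22). It was found in 89.2% of the cells of cluster 0 and 47.0% of those of cluster 1, and at equal depth in 86.6% and 25.5%. Its neighbour Gstm1 differed less, with 16.5 [15.4, 17.6] in cluster 0 and 10.9 [10.1, 11.8] in cluster 1. Of the 6 measured cytosolic transferases, Gstm2 was the 1 above the 2-fold line and Gsto1 the 1 below it. Gsto1, an omega class enzyme, had 1.62 [1.29, 2.01] in cluster 0 and 5.06 [4.51, 5.67] in cluster 1 (fold 0.333, ratio interval 0.247 to 0.409). Gsta4, an alpha class enzyme that acts on lipid aldehydes, had 4.58 in cluster 0 and 2.73 in cluster 1. Gstp1, of the pi class, had 3.84 and 5.52 there. Mgst1, in the membranes of the endoplasmic reticulum and mitochondria, had 10.1 [9.23, 11.0] in cluster 0 and 5.99 [5.39, 6.65] in cluster 1, within 2-fold.

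Of the glutathione peroxidases 2 were measured, and 1 was at least 2-fold lower in cluster 0. This was Gpx4, which reduces lipid peroxides in membranes and had 4.35 [3.80, 4.96] in cluster 0 and 11.6 [10.7, 12.5] in cluster 1 (fold 0.380, 0.321 to 0.437). Gpx1, the cytosolic form, lay the other way within 2-fold, with 4.56 [4.0, 5.19] in cluster 0 and 2.38 [2.0, 2.81] in cluster 1. Gpx2, known from the gut epithelium, had 1.54 [1.22, 1.92] in cluster 0 and 0.203 [0.105, 0.354] in cluster 1, below the level needed to be measured. Its 79 UMI in cluster 0 were uneven, with 24.6% of cells holding any and the 10% of cells with the most holding 74.7% of them. For Sepp1 and Gstm2 these 10% held 37.2% and 29.8%.

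Of 4 genes of glutathione synthesis and recycling, 3 were measured and 2, Gsr and Gclm, were at least 2-fold lower in cluster 0. Gsr had 1.46 [1.15, 1.83] in cluster 0 and 3.26 [2.81, 3.75] in cluster 1 (fold 0.465), and Gclm had 0.624 [0.427, 0.881] in cluster 0 and 1.42 [1.13, 1.76] in cluster 1 (fold 0.477). Gclc had 0.897 in cluster 0 and 1.32 in cluster 1, and Gss had 3 UMI in cluster 0 and 23 in cluster 1. Summed over the 4 genes, the level was 3.04 in cluster 0 and 6.38 in cluster 1. Both calls lie close to the 2-fold line: with levels scaled by the median ratio over all measured genes, the 3 higher and 5 lower redox genes became 5 higher and 3 lower, and with ribosomal and mitochondrial genes left out of the totals 8 higher and 3 lower. Ribosomal protein genes took a median of 23.5% of UMI in cells of cluster 0 and 8.68% in cluster 1.

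Of 5 measured peroxiredoxins only the mitochondrial and peroxisomal Prdx5 was called, with 2.46 [2.05, 2.93] in cluster 0 and 5.96 [5.35, 6.61] in cluster 1 (fold 0.422, 0.334 to 0.507). Prdx1 had 20.6 [19.4, 21.9] in cluster 0 and 24.3 [23.0, 25.5] in cluster 1, and Prdx6, which also acts on phospholipids, had 4.62 in cluster 0 and 2.53 in cluster 1. In the thioredoxin group, Txn1, the cytosolic thioredoxin, had 4.0 in cluster 0 and 6.26 in cluster 1, and its mitochondrial counterpart Txn2 had 1.77 and 1.03. Txnip, which binds and inhibits thioredoxin, had 0.838 in cluster 0 and 1.64 in cluster 1. Txndc17, a small thioredoxin-like protein, was the only called gene of this group, with 3.45 [2.96, 4.0] in cluster 0 and 1.32 [1.04, 1.64] in cluster 1 (2.51-fold, 2.0 to 3.47). The superoxide dismutases Sod1 (1.17 in cluster 0, 2.23 in cluster 1) and Sod2 (1.56 and 2.58) were within 2-fold.

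**Figure D2:**
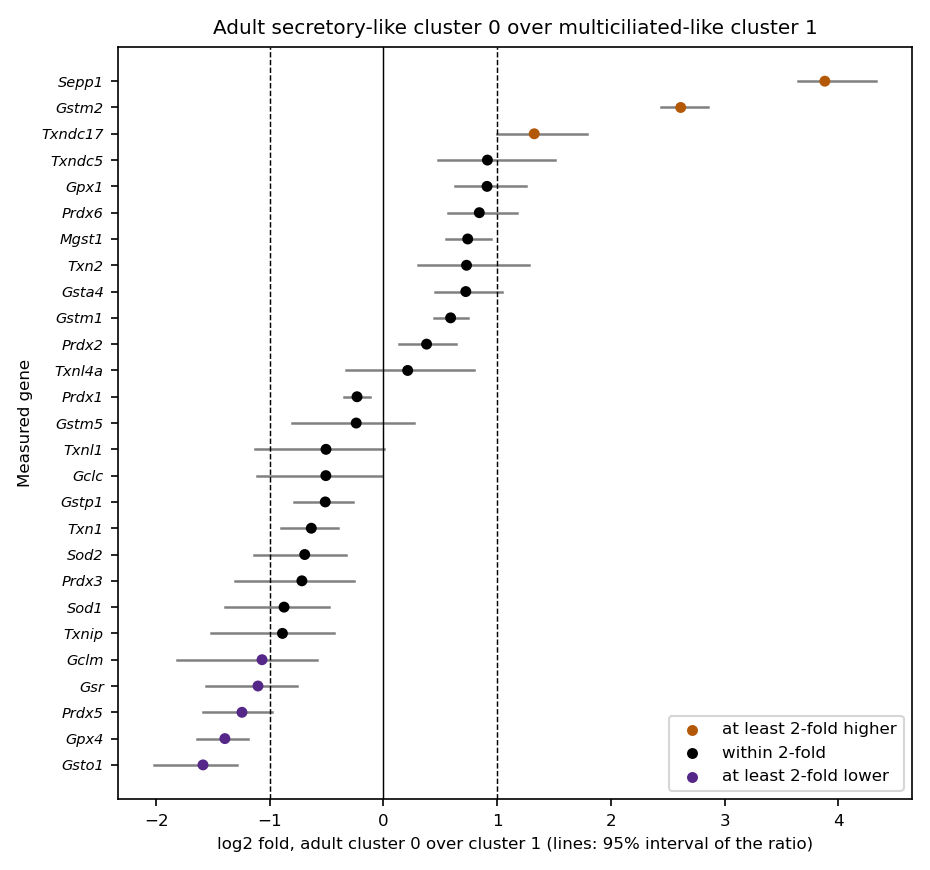
Points give the log2 fold of the 27 measured redox genes in adult cluster 0 over cluster 1 (x axis) and lines the 95% interval of the ratio, with dashed lines at 2-fold. Sepp1 and Gstm2 lie at 3.88 and 2.61, far from the other genes, and Gsto1 and Gpx4 at the low end at -1.59 and -1.39.

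Among 46 further genes of NRF2, NADPH and glutathione metabolism, 13 were measured, 2 were at least 2-fold higher in cluster 0 and 2 lower. Akr1a1, an aldehyde reductase, had 5.30 in cluster 0 and 2.38 in cluster 1 (2.18-fold), and Glrx3, a glutaredoxin, had 1.42 and 0.625 (2.10-fold). Fth1, the ferritin heavy chain that stores iron, had 26.4 [25.0, 27.8] in cluster 0 and 62.1 [60.1, 64.1] in cluster 1 (fold 0.426). Cbr1, a carbonyl reductase, had 0.819 in cluster 0 and 2.03 in cluster 1. Nfe2l2 itself had 1.68 in cluster 0 and 1.16 in cluster 1. Nqo1 and Hmox1, widely used readouts of NRF2, had 1 and 8 UMI in cluster 0 and 0 and 3 in cluster 1.

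Of the 2 multiciliated-like clusters, cluster 3 carried more Gpx3, Gsto1, Gpx1 and Mgst3 than cluster 1 and less Gsta4, Gstm2, Gsr and Prdx3. Cluster 3 is mixed in its markers, with Foxj1 found in 51.4% and Ovgp1 in 83.8% of its 37 cells. When the authors clustered both libraries together, 17 of its cells joined merged cluster 0, with 178 cells of cluster 1, and 19 joined merged cluster 6. Of 25 measured redox genes, 7 of which passed only through their higher group, 4 (16%) were at least 2-fold higher and 4 (16%) lower. Over 1765 measured genes, 7.54% were higher and 5.33% lower. The median log2 fold of the 25 was -0.03, against -0.08 over all.

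Gpx3, the secreted plasma glutathione peroxidase, had 3.25 [2.32, 4.42] in cluster 3 (40 UMI) and 0.490 [0.328, 0.703] in cluster 1 (29 UMI), a 5.68-fold difference (4.01 to 11.1). In cluster 3 it was found in 35.1% of 37 cells, and the 10% with the most held 75.0% of its UMI. Gsto1 had 12.1 [10.2, 14.2] in cluster 3 and 5.06 [4.51, 5.67] in cluster 1 (2.36-fold, 1.95 to 2.92), and was found in 83.8% and 68.3% of cells. Of clusters 0, 1 and 3, Gsto1 was thus lowest in cluster 0 and highest in cluster 3, with intervals that do not overlap. Gpx1 had 5.85 [4.57, 7.36] in cluster 3 and 2.38 [2.0, 2.81] in cluster 1 (2.40-fold). Mgst3, a microsomal enzyme, had 2.52 and 0.979 (2.42-fold).

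On the other side, Gsta4 had 0.406 [0.132, 0.947] in cluster 3 (5 UMI) and 2.73 [2.33, 3.19] in cluster 1 (fold 0.178). Gstm2 had 0.974 [0.503, 1.70] in cluster 3 (12 UMI) and 3.97 [3.48, 4.51] in cluster 1 (fold 0.264), and with every cell weighted alike its log2 fold was -0.45 in place of -1.92. Gstm1 did not share this difference, with 15.1 [13.0, 17.4] in cluster 3 and 10.9 [10.1, 11.8] in cluster 1. Gsr had 1.30 in cluster 3 and 3.26 in cluster 1 (fold 0.417), and the mitochondrial peroxiredoxin Prdx3 had 0.731 and 1.60 (fold 0.488, 0.202 to 0.902). Txn1, at 11.1 [9.34, 13.1] in cluster 3 and 6.26 [5.64, 6.93] in cluster 1, and Prdx1, at 31.3 [28.3, 34.6] and 24.3 [23.0, 25.5], had their highest levels in cluster 3 but were within 2-fold. None of 12 measured genes of the wider list was called. The dissociation stress genes summed to 193.3 per 10000 in cluster 3 and 77.5 in cluster 1, and the secretory markers to 27.1 and 9.27. Their part in these differences was not tested.

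Within the secretory-like cells, cluster 4, with the most Ovgp1 (282 per 10000, against 58.7 in cluster 0), carried less Sepp1, while Gstm2 and Gstm1 were within 2-fold. Of 28 measured redox genes, 7 of which passed only through their higher group, 3 were at least 2-fold higher in cluster 4 and 2 lower, where 12.5% of all 1419 measured genes were higher and 6.77% lower. Their median log2 fold was 0.27, against 0.17 over all. Sepp1 had 5.24 [3.58, 7.39] in cluster 4 and 20.8 [19.6, 22.1] in cluster 0 (fold 0.256, 0.171 to 0.358). Gstm2 had 18.2 [14.9, 21.9] in cluster 4 and 24.8 [23.5, 26.2] in cluster 0, and Gstm1 had 17.7 [14.5, 21.3] and 16.5 [15.4, 17.6]. The intervals of Gstm2 do not overlap and those of Gstm1 do.

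Sod3, the extracellular superoxide dismutase, had 2.95 [1.75, 4.65] in cluster 4 (18 UMI) and 0.780 [0.557, 1.06] in cluster 0 (3.46-fold, 2.04 to 6.74). Gstt2, a theta class transferase, had 4.25 [2.78, 6.23] in cluster 4 and 1.5 [1.18, 1.88] in cluster 0 (2.72-fold, 1.74 to 4.47). Prdx4, the peroxiredoxin of the secretory pathway, had 3.11 [1.87, 4.86] in cluster 4 (19 UMI) and 0.877 [0.640, 1.17] in cluster 0 (3.28-fold), but its log2 fold was -0.23 in cells thinned to 1000 UMI. Gpx2 had 3 UMI in cluster 4 (0.491) and 79 in cluster 0 (1.54), with a ratio interval of 0.0644 to 0.966. Mgst1 was highest of all groups in cluster 4, at 15.9 [12.9, 19.4] against 10.1 [9.23, 11.0] in cluster 0, within 2-fold. None of 13 measured genes of the wider list was called. The 31 cells of cluster 4 held 61113 UMI with a median of 1185 per cell, against 4107.5 in cluster 0, and this depth gap runs with every difference above.

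The authors' clustering of both libraries together divides the secretory-like cells otherwise. Its cluster 4 holds 49 cells of adult cluster 0, 24 of adult cluster 4 and 11 of adult cluster 5, with a median of 1177 UMI, and its cluster 2 holds 79, 6 and 12 of them with a median of 5101. Sepp1 had 3.88 [2.82, 5.21] in merged cluster 4 and 19.9 [18.7, 21.1] in merged cluster 2 (ratio 0.195), and Gstm2 had 20.7 [18.2, 23.6] and 22.5 [21.3, 23.8] (ratio 0.920, 0.797 to 1.06). Sepp1 was thus lower in this grouping of largely the same cells too, whereas the ratio interval of Gstm2 includes equal levels. Gstt2 was again higher, with 4.94 in merged cluster 4 and 1.22 in merged cluster 2 (ratio 4.06), whereas Sod3 (ratio 1.11, 0.519 to 2.16) and Prdx4 (ratio 1.02, 0.528 to 1.82) were not. Prdx1 had 36.6 in merged cluster 4 and 16.9 in merged cluster 2 (ratio 2.17), and Txndc17 had 6.70 and 2.88 (ratio 2.33). Mgst1 lay the other way from the adult clusters, with 7.41 in merged cluster 4 and 11.1 in merged cluster 2 (ratio 0.665, 0.523 to 0.837).

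The 17 kept cells of adult cluster 5 carried more Gpx3 and Gsto1 and less Sepp1 than cluster 0. Of 25 measured redox genes, of which 8 passed only through their higher group, 5 (20%) were at least 2-fold higher and 5 (20%) lower. Over 1381 measured genes, 9.20% were higher and 9.85% lower. The median log2 fold was -0.24, against -0.01 over all. Gpx3 had 5.61 [3.78, 8.01] in cluster 5 (30 UMI) and 0.468 [0.30, 0.696] in cluster 0 (24 UMI), a 10.1-fold difference (6.77 to 21.4). Gsto1 had 13.5 [10.5, 16.9] in cluster 5 and 1.62 [1.29, 2.01] in cluster 0 (7.89-fold, 5.98 to 11.5). Cluster 3 also had more of both than cluster 0 (3.25 and 12.1) and less Sepp1 (1.06). However, the multiciliated markers summed to 1.31 per 10000 in the 17 kept cells of cluster 5, with Foxj1 at 0. Over all 25 cells of cluster 5, Foxj1 had 16 UMI in 4 cells (1.43 per 10000).

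Prdx4 had 2.24 in cluster 5 and 0.877 in cluster 0 (2.40-fold), Prdx5 had 5.05 and 2.46 (2.01-fold), and Txndc9 had 1.87 and 0.877, with a ratio interval that includes equal levels (0.957 to 4.29). Sepp1 had 2.80 [1.57, 4.63] in cluster 5 and 20.8 [19.6, 22.1] in cluster 0 (fold 0.139), Gstm2 had 8.79 [6.46, 11.7] and 24.8 [23.5, 26.2] (fold 0.357), and Gsta4 had 1.31 and 4.58 (fold 0.301). Txn2 and Txndc5, a protein disulfide isomerase, had 3 UMI each in cluster 5. In the 8 cells left out for their smooth muscle markers, Gpx3 had 0.683 and Gsto1 2.05, against 5.61 and 13.5 in the other cells of the cluster. Sepp1 had 10.2 in those 8 cells against 2.80. Over all 25 cells, Sepp1 was found in 9, and the 10% of cells with the most held 77.3% of its UMI. With all 25 cells, 5 redox genes were called, of which 4 were among the 10. The wider list had 16 measured genes, of which Ephx1, an epoxide hydrolase, was higher (11 UMI in cluster 5) and Nfe2l2 lower (4 UMI there).

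At P4 none of 20 measured redox genes differed 2-fold between P4 cluster 1 and cluster 0, where 1.98% of 1463 measured genes were higher and 0.478% lower, so a count of 0 among 20 is near the background. Their summed level was 64.8 per 10000 in cluster 1 and 65.3 in cluster 0. The widest gaps were in Gstm2, with 2.32 [1.97, 2.72] in cluster 1 and 4.05 [3.73, 4.39] in cluster 0 (ratio interval 0.477 to 0.686), and Gsto1, with 1.98 [1.65, 2.35] and 1.16 [0.996, 1.35] (1.34 to 2.15). Gstm7, below the measured minimum, had 1.13 [0.890, 1.42] in cluster 1 and 0.390 [0.296, 0.506] in cluster 0. Selenop, the P4 symbol of Sepp1, had 0.543 [0.381, 0.752] in cluster 1 and 0.513 [0.404, 0.644] in cluster 0. None of 11 measured genes of the wider list was called.

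**Figure D3:**
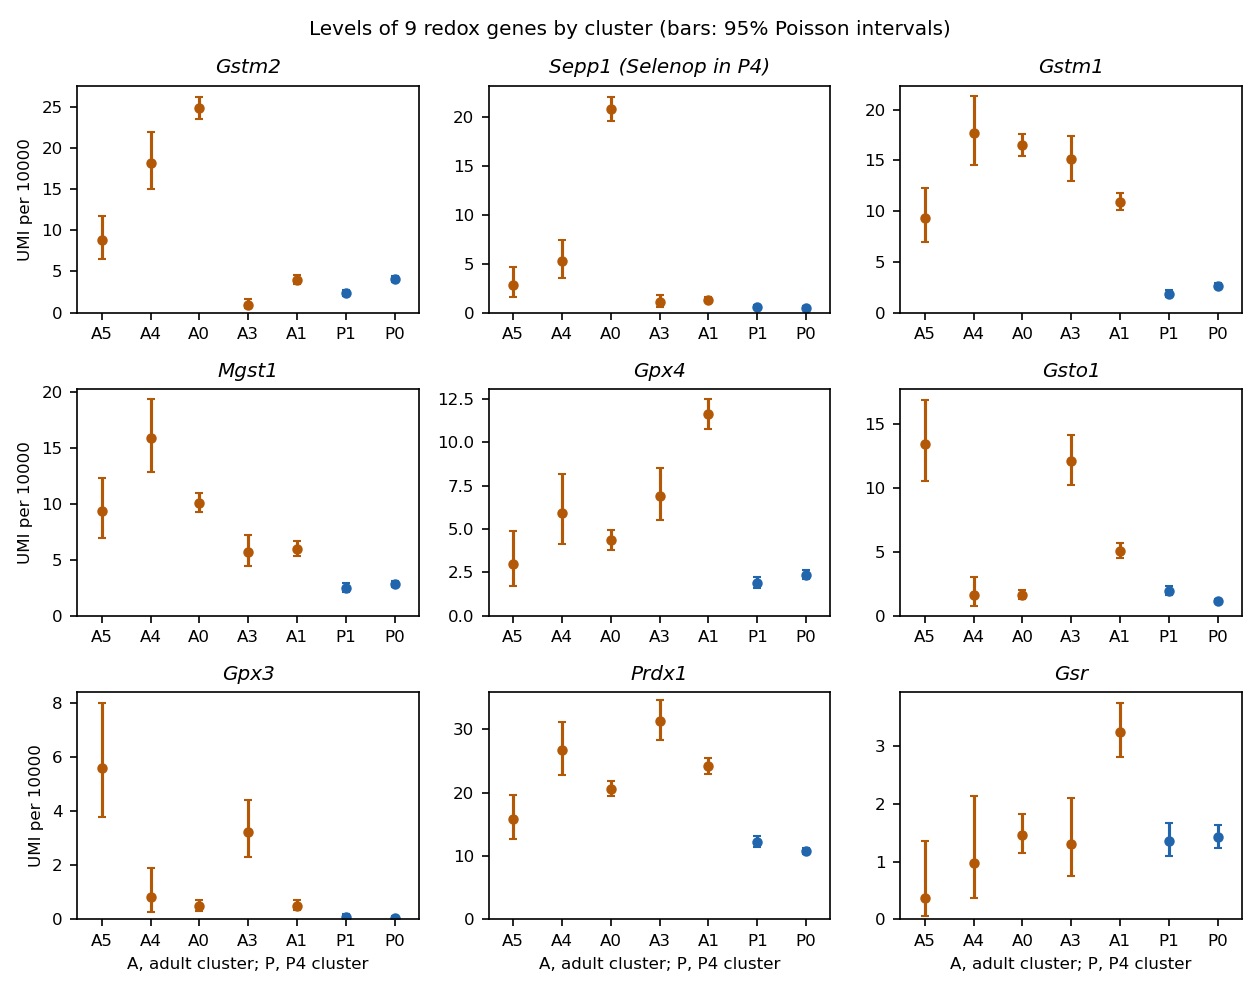
Points give the pooled level (UMI per 10000) of 9 redox genes in adult clusters 5 (without smooth muscle cells), 4, 0, 3 and 1 and P4 clusters 1 and 0, with 95% Poisson intervals. Sepp1 stands out in adult cluster 0 at 20.8, Gpx4 in adult cluster 1 at 11.6 and Gsto1 in adult clusters 5 and 3 at 13.5 and 12.1, and the 2 P4 clusters lie close together in each panel.

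Between the ages, over the 26897 genes listed in both tables, the adult library carried more of 5 redox genes and at least 2-fold less of none. Of 23 measured redox genes, 3 of which passed only through their higher group, Gstm1, Gstm2, Gpx4, Gsto1 and Mgst1 were at least 2-fold higher in the adult library, where 19.7% of 1545 measured genes were higher and 8.67% lower. The share of 5 in 23 is near the background, whereas the median log2 fold was 0.62 for the redox genes and 0.17 for all measured genes. Summed over the 67 genes of both tables the redox level was 132.6 in the adult and 74.4 per 10000 at P4. Age cannot be told apart from library here: the adult library had a median of 3232 UMI per cell and 4.0% mitochondrial UMI, and the P4 library 7585 and 0.844%. The libraries were also counted over unlike gene lists, of 27998 genes in the adult and 53573 at P4. Keeping the genes of both does not undo this, and its part in the folds was not tested.

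Gstm1 had 13.8 [13.2, 14.4] in adult cells and 2.77 [2.53, 3.02] in P4 cells, a 4.85-fold difference (4.53 to 5.52). Gstm2 had 12.7 [12.1, 13.3] in adult cells and 4.06 [3.77, 4.36] in P4 cells (3.07-fold), and Gpx4 had 7.86 [7.40, 8.34] and 2.57 [2.35, 2.81] (2.98-fold). Gsto1 had 4.55 [4.20, 4.92] in adult cells and 1.64 [1.46, 1.83] in P4 cells (2.68-fold), and Mgst1 had 8.19 [7.72, 8.69] and 3.14 [2.89, 3.41] (2.56-fold). The other 18 measured genes were within 2-fold, among them Prdx2 and Prdx4, which alone of the 23 had ratio intervals wholly below 1 (0.711 to 0.862 and 0.611 to 0.926), that is, higher levels at P4. Per 10000 UMI of the full adult table, Gpx4 was highest in cluster 1 (11.6), with 6.90 in cluster 3 and 7.72 over all adult cells. Gsto1 was highest in cluster 5 without smooth muscle cells (13.5), followed by cluster 3 (12.1). Clusters 1 and 3 held 183 and 37 of the 406 adult cells. Set against P4, adult clusters 0 and 4 alone gave a log2 fold of 0.01 for Gsto1 and 0.81 for Gpx4, and 2.57 for both Gstm1 and Gstm2. The part of cell make-up in the folds between the ages was not tested.

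Sepp1 is left out of these counts because the tables name it differently, as Sepp1 in the adult and Selenop in the P4 table. With the symbols paired, a step added after seeing the data, the level was 9.18 [8.68, 9.70] in adult cells and 0.603 [0.496, 0.727] in P4 cells, a ratio of 15.2 (12.5 to 18.7). This exceeds the gap of each of the 5 genes above. In adult cluster 1, where the source of the low level was not tested, it was 1.34, against 0.603 in all P4 cells (ratio 2.22, 1.64 to 3.0). Txn1 has a pseudogene, Txn-ps1, that the P4 table alone lists (130 UMI), and reads may be split between them. Txn1 in adult cells and the sum of both in P4 cells were 5.54 and 5.67 (ratio 0.976, 0.888 to 1.07). Of the smaller members, Gclc had 146 UMI in the adult and 35 in the P4 library (1.04 and 0.165 per 10000 of each full table), Gpx2 105 and 4, Gpx3 132 and 12, and Sod3 125 and 5.

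**Figure D4:**
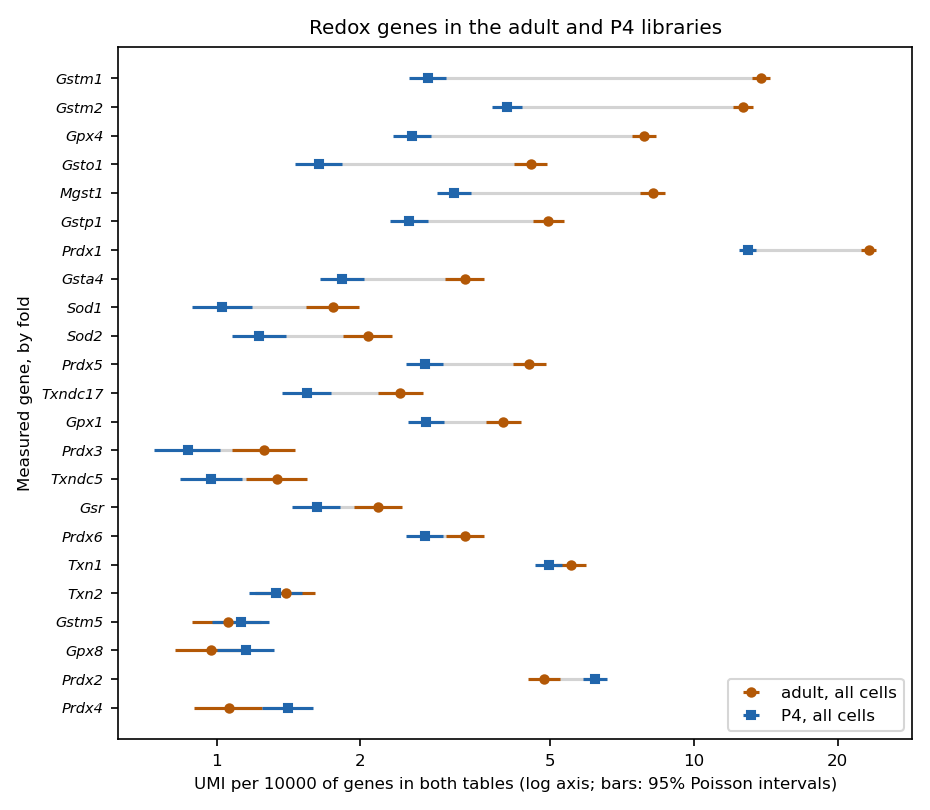
Circles (adult cells) and squares (P4 cells) give levels of the 23 redox genes measured in both libraries, per 10000 UMI of genes in both tables on a log axis, with 95% Poisson intervals, ordered by fold. The gap is widest for Gstm1, at 13.8 and 2.77, and closes towards the foot of the plot, where Prdx2 and Prdx4 were higher at P4.

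Adult cluster 0 was also set against P4 cluster 1, the P4 cluster with more of the secretory markers. Of 24 measured redox genes, 6 of which passed only through their higher group, 6 were at least 2-fold higher in adult cluster 0 and none lower, against 13.4% and 11.5% of 1429 measured genes, with a median log2 fold of 0.51 against -0.00 for all. Gstm2 had 25.2 [23.9, 26.7] in adult cluster 0 and 2.67 [2.27, 3.13] in P4 cluster 1, a 9.15-fold difference (7.99 to 11.2), and Gstm1 had 16.8 [15.7, 17.9] and 2.10 [1.74, 2.51] (7.68-fold). Mgst1 had 10.3 in adult cluster 0 and 2.88 in P4 cluster 1 (3.48-fold), Gsta4 4.66 and 1.79 (2.52-fold), Prdx6 4.70 and 2.12 (2.17-fold) and Txndc5 1.81 and 0.832 (2.04-fold). Paired by gene, Sepp1 had 21.2 [19.9, 22.5] in adult cluster 0 and Selenop 0.624 [0.437, 0.864] in P4 cluster 1, a ratio of 33.9 (24.3 to 48.6). Gpx4 and Gsto1, called over all cells, were within 2-fold here. The secretory markers summed to 90.7 in adult cluster 0 and 26.0 in P4 cluster 1.

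In the wider list 14 genes were measured, of which 3 (21.4%) were at least 2-fold higher in the adult library, near the 19.7% over all genes, and 1 was lower. Fth1 had 47.6 in adult and 19.5 in P4 cells (2.43-fold), the ferritin light chain Ftl1 45.0 and 22.0 (2.04-fold), and Sqstm1, an autophagy receptor, 1.94 and 0.794 (2.28-fold). Tkt, transketolase, had 1.65 [1.44, 1.88] in adult cells and 5.60 [5.26, 5.95] in P4 cells (fold 0.307). Between adult cluster 0 and P4 cluster 1, Ftl1, Sqstm1 and Nfe2l2 were higher and Tkt was lower, of 12 measured. Nqo1 and Hmox1 were low at both ages, with 4 and 14 UMI in the adult and 13 and 15 in the P4 library.

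The mu class shows the members' differences within 1 gene cluster. The Gstm genes lie side by side on chromosome 3 (GENCODE M21, GRCm38), among them Gstm5 at 107895821 to 107898686, Gstm2 at 107981702 to 107986453 and Gstm1 at 108012255 to 108017973. They resemble each other in sequence, so reads may be split between them and each share is uncertain. Gstm2 made up 58.0% of the Gstm UMI in adult cluster 0 (exact binomial interval 55.9 to 60.1), 48.1% in cluster 4, 24.4% in cluster 1 (21.7 to 27.2) and 5.56% in cluster 3 (2.90 to 9.50). Gstm1 made up 38.6%, 46.8%, 67.1% and 86.1% of them. At P4, Gstm2 made up 35.3% in cluster 1 and 49.7% in cluster 0, and Gstm5 and Gstm7, minor in the adult, made up 18.1% and 17.2% in P4 cluster 1. Gstm5 and Gstm7 have an antioxidant response element core in their promoter windows and Gstm1 and Gstm2 have none. Such a core was present in 14.0% of all genes with a window, and a link to these levels was not tested.

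**Figure D5:**
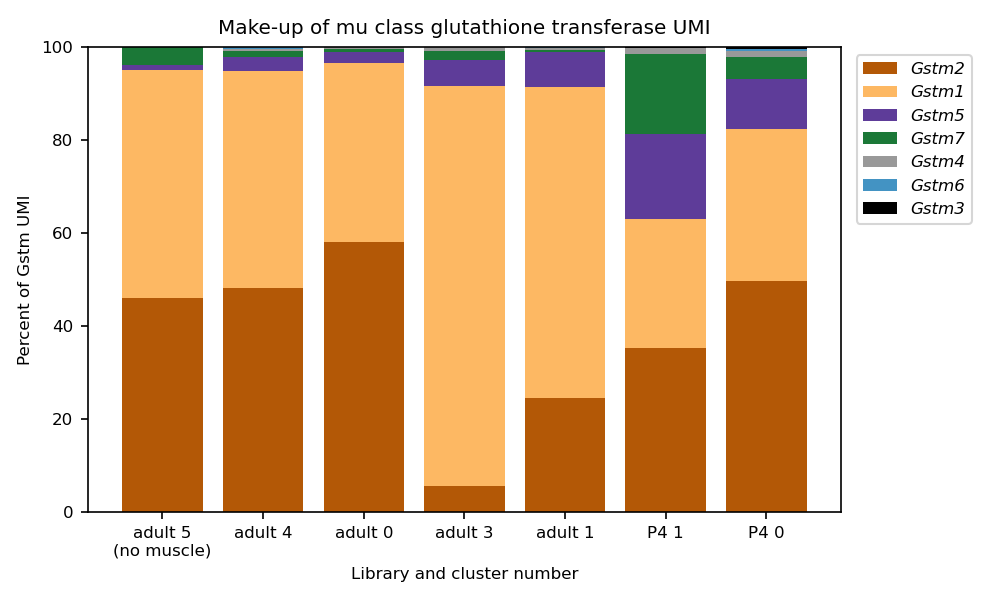
Bars divide the UMI of the mu class transferase genes of each adult and P4 cluster among the genes (percent of Gstm UMI). Gstm2 is the largest part in adult cluster 0 (58.0%), Gstm1 in adult clusters 3 and 1 (86.1% and 67.1%), and Gstm5 and Gstm7 are visible mainly at P4.

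The remaining members were low. Among redox genes with at least 20 counts, 7 had their highest adult level in cluster 0, 10 in cluster 1, 9 in cluster 3, 14 in cluster 4 and 6 in cluster 5 without the smooth muscle cells, and small clusters can top the order by counting error alone. Cat had 61 UMI in the adult and 75 in the P4 library, Gss 36 and 17, Gstt1 13 and 24, Gstk1 14 and 34, and Gstp2 9 and 31, the last being nearly identical to Gstp1. The thioredoxin reductases Txnrd1 and Txnrd2, of cytosol and mitochondria, had 62 and 17 UMI in the adult and 112 and 23 in the P4 library. Gpx8, in the endoplasmic reticulum, had 0.956 per 10000 in the adult and 0.998 in the P4 library, and Gstm5 had 1.03 and 0.975. Txnl1 (141 and 173 UMI), Txnl4a (133 and 157), Txndc5 (184 and 179) and Txndc9 (139 and 130) complete the thioredoxin-domain genes that were measured in a comparison, with Txndc15 (110 and 101) and Txndc17 (334 and 284). The other members with counts, Gpx7, Gsta2, Gsta3, Gstm4, Gstm6, Gsto2, Gstt3, Gstz1, Mgst2, Txndc11, Txndc12, Txndc16, Txnl4b and Txnrd3, had between 1 and 63 UMI in the adult and between 1 and 101 in the P4 library. Gstp3 and Prdx2-rs3, which the P4 table alone lists, had 3 and 2 UMI there.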

How the data were processed

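Mouse oviduct epithelium was profiled in 2 single-cell libraries (10x Chromium 3' V2, per the labels), 1 adult and 1 P4. Per the submitters' processing notes, Seurat 2.3.4 and Cell Ranger (its version is not given in the sources used here) were used with the build mm10, and no role or order is stated. The authors deposited raw counts, whole UMI per gene and cell with no normalization, in 3 tables (adult, P4 and merged), and 3 tables of cluster numbers (unit: other). Whole numbers and unequal cell totals were checked in the tables.

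From these counts, a level was computed as the share of a gene in the summed counts of a group, times 10000. Repeated adult barcodes were counted once, by the column under the prefix OVA.4948. The merged table gave the merged clusters and 1 alternative. Comparisons between ages used the genes of both tables, leaving out 1.79% of adult and 13.4% of P4 UMI. Levels have exact Poisson intervals, ratios exact conditional binomial intervals and shares of cells Clopper-Pearson intervals, all at 95% and for counting error only. Folds used a pseudocount of 0.1 per 10000, and a gene was measured at a mean level of at least 1. A fold with 3 counts or fewer on a side is given with its interval or counts. With 1 library per age there was no test. No doublet caller was run, and doublets may remain. Shares at equal depth come from the 322 adult and 263 P4 cells of at least 1000 UMI, each thinned to 1000.

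The 7 comparisons name measured redox genes at least 2-fold different with at least 20 pooled counts, 37 genes always, and genes of a list of 46 neighbours at least 2-fold different; Glrx3, Ephx1, Nfe2l2 and some genes of few counts are named to account for a count of 5 or fewer. Members and lists were chosen with earlier results of these data known, and the limit of 10 smooth muscle UMI per 10000 comes from earlier work on them. Alternatives changed the pseudocount, filter, scaling, weighting, depth, cells and barcode column, and pairing of Sepp1 with Selenop and of Txn1 with Txn-ps1 was added after seeing the data. Symbols of all 72 genes matched RefSeq and GENCODE M21 entries; sequences are from RefSeq (GRCm38.p6). Reads of near-identical copies (Gstm, Gsta1 and Gsta2, Gstp1 and Gstp2, Prdx6 and Prdx6b) may be split between them. Python 3.11.15, numpy 2.4.6, scipy 1.17.1, pandas 2.3.3 and matplotlib 3.10.9 were used, and the calculations were tested on simulated data.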

Additional observations from a re-analysis of the deposited data

How the results depend on the processing

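The filter on low levels moved the counts of redox genes at least 2-fold different in every comparison. With no filter, the count was 13 in place of 8 for adult cluster 0 over 1, 17 in place of 8 for cluster 3 over 1, 13 in place of 5 for cluster 4 over 0, 22 in place of 10 for cluster 5 over 0, 1 in place of 0 for P4 cluster 1 over 0, 12 in place of 5 for adult over P4 and 17 in place of 6 for adult cluster 0 over P4 cluster 1. With a UMI in at least 10% of cells required instead, the counts were 14 (cluster 3 over 1), 9 (4 over 0), 17 (5 over 0), 1 (P4), 12 (adult over P4) and 15 (adult cluster 0 over P4 cluster 1). At a minimum level of 0.5 per 10000 they were 8 (4 over 0), 1 (P4), 8 (adult over P4) and 11 (adult cluster 0 over P4 cluster 1). Weighting every cell alike gave 13 for cluster 0 over 1, all cells of cluster 5 gave 5, and totals without ribosomal and mitochondrial genes gave 1 at P4. Without the filter, genes below a mean level of 1 are added, some of them with over 100 UMI in the adult library, and the cause of the other shifts was not tested. Of the other counts under alternatives, 56 stayed within 1.5 times. In adult cluster 0 over P4 cluster 1 the split became 7 higher and 1 lower with totals without those genes and in thinned cells. The split of adult cluster 0 over adult cluster 1 also changed with the scaling, as given above with Gsr and Gclm.

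Among single genes, 418 values kept their size, 43 moved and 1 changed sign: Prdx4 in cluster 4 over 0, at -0.23 (log2) in thinned cells, the cause of which was not tested. No paired analysis was possible because each age is 1 library and the labels give no replicate numbers, and no library could be left out. Depth limits the small clusters most: 3 counts equal 0.491 per 10000 in adult cluster 4 and 0.561 in cluster 5 without smooth muscle cells.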
